A study of Homo sapiens with 18 samples.

Results

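Brain metastasis signature genes are genes that earlier work found raised or required in brain-tropic derivatives of breast cancer cells. A set of 8 of them was examined in the LM2, BrM3 and BoM lines: ST6GALNAC5, HBEGF, PCDH7, GJA1, L1CAM, LTBP1, SERPINB2 and SERPINI1. They were chosen by name for that background and not by their levels, although earlier results of these data were known at the time. They were found by symbol among the 58815 genes of the counts table. All 8 passed the filter on low counts that kept 12087 genes for testing.

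RNA from 18 cultures was sequenced to ask how knockdown of WDR5, a scaffold protein of histone methyltransferase complexes that place H3K4 methylation, changes gene expression. All 3 lines descend from MDA-MB-231, a human triple-negative breast cancer cell line, by selection in mice: LM2 for growth in lung, BrM3 in brain and BoM in bone. Every culture carried a hairpin induced by DOX (doxycycline), shCtrl in the control cultures and shWDR5-1 in the others, and all cultures, controls included, were kept in DOX at 1 μg/mL for 3 days. Each line and hairpin had 3 replicates, harvested at different passages, so the 6 groups share the inducer and differ by line and hairpin. Only 1 hairpin against WDR5 was sequenced, 1 derivative stands for each organ, and the parental line was not analysed here. The cell line labels call the brain derivative BrM2 where the study's text has BrM3, the name used here. The source descriptions of 12 of the 18 libraries name another line than their titles do, and the titles were followed. Cells were grown as monolayers, with no brain, lung or bone tissue present.

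These genes act at different steps of brain colonisation. ST6GALNAC5 is a sialyltransferase of brain gangliosides linked to passage across the blood-brain barrier, and HBEGF is a membrane-bound ligand of the EGF receptor. PCDH7, a protocadherin, and GJA1, the gap junction protein connexin 43, were described in junctions between carcinoma cells and astrocytes. SERPINI1 (neuroserpin) and SERPINB2 (PAI-2) inhibit the proteases that turn plasminogen into plasmin, plasmin can cleave the adhesion molecule L1CAM, and L1CAM lets cells spread along brain capillaries. LTBP1 binds latent TGF-beta and stores it in the extracellular matrix.

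The upstream promoter sequences of SERPINB2, SERPINI1 and GJA1 are shown because these 3 genes had their highest mean shCtrl level in the brain line. Each is the 250 bases before the transcription start, 5′ to 3′ on the gene's strand, from RefSeq on GRCh38.p14. The windows are chr18:63887455-63887704 for SERPINB2, chr3:167735471-167735720 for SERPINI1 and chr6:121435396-121435645 for GJA1, all on the plus strand. Capitals mark matches on either strand to 4 motifs: the E-box CACGTG, the AP-1 site TGANTCA, the TATA box TATAAA and the CCAAT box CCAAT.
SERPINB2: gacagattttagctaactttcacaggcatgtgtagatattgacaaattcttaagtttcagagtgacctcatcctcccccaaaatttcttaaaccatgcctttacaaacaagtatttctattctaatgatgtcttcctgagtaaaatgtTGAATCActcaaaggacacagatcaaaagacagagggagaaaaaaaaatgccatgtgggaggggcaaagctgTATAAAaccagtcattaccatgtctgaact
SERPINI1: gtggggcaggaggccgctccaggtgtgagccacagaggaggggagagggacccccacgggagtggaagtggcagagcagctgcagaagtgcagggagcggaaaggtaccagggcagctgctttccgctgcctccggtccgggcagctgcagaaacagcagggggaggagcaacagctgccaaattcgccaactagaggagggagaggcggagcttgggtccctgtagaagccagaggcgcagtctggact
GJA1: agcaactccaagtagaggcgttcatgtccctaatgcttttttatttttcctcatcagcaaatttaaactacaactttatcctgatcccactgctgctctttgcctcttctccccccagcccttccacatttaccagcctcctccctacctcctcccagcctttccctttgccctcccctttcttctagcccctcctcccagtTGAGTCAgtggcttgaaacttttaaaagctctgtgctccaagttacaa
The SERPINB2 window holds a match to the AP-1 site and one to the TATA box, the GJA1 window holds a match to the AP-1 site, and the SERPINI1 window holds none of the 4. Over 35116 RefSeq promoter windows, which run 250 bases before to 50 after a start, 7.71% hold the AP-1 letters and 11.5% the TATA letters. All 8 genes had a window, 11 in all. The CCAAT letters, found in 34.6% of all windows, occur in those of ST6GALNAC5 and PCDH7 and in 1 of the 3 windows of LTBP1. No window of HBEGF or L1CAM holds any of the 4 motifs, and CACGTG, found in 7.26% of all windows, is in none of the 11. The matches describe letters only, and no measure of binding was used.

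Total counts ranged from 17485841 to 119667013 per library, with a median of 37861544. Levels are given as CPM, the count scaled to a common library total after TMM, edgeR's normalization of library sizes, with the SD over n = 3 libraries per group. WDR5 itself fell in each line, from 124.9 ± 11.1 to 23.1 ± 2.25 CPM in LM2, from 86.1 ± 6.95 to 21.9 ± 1.42 CPM in BrM3 and from 89.5 ± 1.71 to 19.1 ± 4.39 CPM in BoM. All 6 markers fixed for a mesenchymal-like breast cancer line (VIM, CD44, SPARC, CAV1 and the keratins KRT8 and KRT18) were detected. They summed to 3650 to 4170 CPM in the shCtrl libraries, although SPARC had a mean of 3.03 CPM in BoM against 372 in LM2. Luminal or epithelial markers summed to 5.87 to 7.26 CPM in LM2 shCtrl, 10.4 to 10.6 in BrM3 and 10.2 to 11 in BoM. Leukocyte markers summed to 0.22 to 1.11 CPM in shCtrl libraries. Of the neural or glial markers RBFOX3 was near 0 and GFAP and MBP were detected. The list summed to 113 to 122 CPM in LM2, 117 to 123 in BrM3 and 123 to 146 in BoM. Most of the sum was MBP, and it did not set the brain line above the others. GFAP alone did not overlap between lines and was lowest in BrM3, with shCtrl means of 9.57 CPM in LM2, 5.60 in BoM and 2.79 in BrM3.

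The first question was whether the 8 genes stand higher in the brain line than in the lung and bone lines before WDR5 is knocked down. They did not share an order over the lines. Between shCtrl BrM3 and shCtrl LM2, SERPINI1, SERPINB2, GJA1 and ST6GALNAC5 were higher in BrM3, PCDH7, LTBP1 and L1CAM were lower, and HBEGF did not pass the test. Between shCtrl BrM3 and shCtrl BoM, GJA1, PCDH7 and SERPINI1 were higher in BrM3 and ST6GALNAC5 was lower. GJA1 and SERPINI1 were the 2 genes higher in BrM3 than in both other lines, a pattern called in 8.82% of all tested genes. The comparisons of lines share their shCtrl libraries and are not independent of each other. In bulk RNA, fewer cells that express a gene and less RNA of that gene per cell cannot be told apart.

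SERPINI1, the neuron-type inhibitor of tissue plasminogen activator, lies on chromosome 3 from 167735243 to 167825569. In shCtrl it stood at 1.44, 1.10 and 1.43 CPM in the 3 LM2 libraries, at 6.29, 6.55 and 6.29 CPM in BrM3 and at 3.93, 3.95 and 5.19 CPM in BoM. The 3 lines did not overlap, with BrM3 highest and LM2 lowest. The log2 difference was 2.27 for BrM3 over LM2 (SE 0.19, adjusted p = 3.62e-08 by the quasi-likelihood test of edgeR with Benjamini-Hochberg adjustment over the 12087 genes, which gave all adjusted p-values here). For BrM3 over BoM it was 0.56 (SE 0.18, edgeR adjusted p = 0.0211), a call that did not hold without replicate 2 of BrM3 shCtrl (0.54, adjusted p = 0.0599), replicate 1 of BoM shCtrl (0.49, 0.0802) or replicate 2 of BoM shCtrl (0.50, 0.073). BoM exceeded LM2 by 1.71 (edgeR adjusted p = 1.33e-06).

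SERPINB2, an inhibitor of both plasminogen activators, lies on chromosome 18 from 63871692 to 63903888. Its shCtrl levels were 2.99, 1.68 and 1.64 CPM in LM2, 8.24, 8.58 and 8.30 CPM in BrM3 and 8.67, 3.74 and 6.90 CPM in BoM. LM2 lay below both other lines, and the wide BoM range overlapped with BrM3. BrM3 exceeded LM2 by 2.06 on the log2 scale (SE 0.26, edgeR adjusted p = 4.66e-06) and BoM exceeded LM2 by 1.68 (edgeR adjusted p = 4.34e-05). The difference between BrM3 and BoM was 0.38 (edgeR adjusted p = 0.23) and passed the test only without replicate 1 of BoM shCtrl (0.68, adjusted p = 0.0472).

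GJA1, on chromosome 6 from 121435595 to 121449727, was the one gene with the brain line alone above both others by nearly the same amount. Its shCtrl levels were 44.6, 36.1 and 43.5 CPM in BrM3, 21.7, 21.9 and 19.6 CPM in LM2 and 19.9, 19.6 and 24.2 CPM in BoM. BrM3 did not overlap with either line, while LM2 and BoM overlapped. The log2 difference was 0.97 over LM2 (SE 0.11, edgeR adjusted p = 1.67e-06) and 0.97 over BoM (SE 0.113, edgeR adjusted p = 4.24e-06). BoM and LM2 differed by 0.01 (edgeR adjusted p = 0.956).

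ST6GALNAC5, on chromosome 1 from 76867480 to 77067546, was highest in the bone line. Its shCtrl levels were 22.5, 20.2 and 19.9 CPM in BoM, 7.25, 6.99 and 6.67 CPM in BrM3 and 5.14, 2.90 and 3.50 CPM in LM2. The lines formed an order of BoM, BrM3 and LM2 without overlap. BoM exceeded LM2 by 2.47 on the log2 scale (SE 0.158, edgeR adjusted p = 1.14e-09). BrM3 was higher than LM2 by 0.89 (SE 0.155, edgeR adjusted p = 0.000155) and differed from BoM by -1.58 (SE 0.151, edgeR adjusted p = 4.03e-07).

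PCDH7, L1CAM and LTBP1 were highest in the lung line. PCDH7, on chromosome 4 from 30720369 to 31146805, stood at 17.8, 21.3 and 21.3 CPM in LM2 shCtrl, at 11.2, 9.79 and 10.3 CPM in BrM3 and at 6.64, 4.08 and 4.43 CPM in BoM, with no overlap between lines. BrM3 differed from LM2 by -0.95 (SE 0.175, edgeR adjusted p = 0.00026) and from BoM by 1.03 (SE 0.185, edgeR adjusted p = 0.00032). Both proteins of the carcinoma-astrocyte junction had different orders over the lines, with PCDH7 highest in LM2 and GJA1 highest in BrM3.

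L1CAM, on chromosome X from 153861514 to 153886173 on the minus strand, stood at 76.3, 127.2 and 130.7 CPM in LM2 shCtrl, at 62.2, 72.3 and 62.0 CPM in BrM3 and at 48.5, 58.8 and 39.0 CPM in BoM. Replicate 1 of LM2 was well below the other LM2 libraries and still above every BrM3 library. The log2 difference of BrM3 from LM2 was -0.77 (SE 0.17, edgeR adjusted p = 0.00136) and that of BoM from LM2 was -1.19 (SE 0.173, edgeR adjusted p = 2.09e-05). BrM3 and BoM did not overlap, and their difference of 0.42 did not pass the test (edgeR adjusted p = 0.062), although it did without replicate 1 of LM2 shCtrl (adjusted p = 0.0141) or replicate 2 of BoM shCtrl (0.58, adjusted p = 0.0234).

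LTBP1, on chromosome 2 from 32946953 to 33399509, ranged from 69.3 to 76.1 CPM in LM2 shCtrl, from 35.6 to 39.5 CPM in BrM3 and from 32.8 to 47.3 CPM in BoM. LM2 lay above both other lines, which overlapped. BrM3 differed from LM2 by -0.94 on the log2 scale (SE 0.155, edgeR adjusted p = 9.06e-05) and BoM from LM2 by -0.93 (edgeR adjusted p = 9.26e-05), and BrM3 from BoM by -0.01 (edgeR adjusted p = 0.957).

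HBEGF, on chromosome 5 from 140332843 to 140346603 on the minus strand, varied least between lines. It ranged from 81.5 to 94.6 CPM in LM2 shCtrl, from 97.0 to 103.6 CPM in BrM3 and from 93.7 to 113.7 CPM in BoM. BoM exceeded LM2 by 0.25 (SE 0.0868, edgeR adjusted p = 0.0245), a call lost without replicate 2 (adjusted p = 0.114) or 3 (0.0575) of LM2 shCtrl or replicate 1 (0.133) or 3 (0.0641) of BoM shCtrl. BrM3 over LM2 was 0.19 (edgeR adjusted p = 0.0754), and passed without replicate 1 of LM2 shCtrl (0.25, adjusted p = 0.0426). BrM3 over BoM was -0.05 (edgeR adjusted p = 0.662).

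Over the 8 genes, 7 were called between BrM3 and LM2, where 47.6% of all tested genes were called, 4 between BrM3 and BoM, where 37.7% were, and 7 between BoM and LM2, where 51.8% were. The shCtrl libraries did not overlap for 8 of the genes between BrM3 and LM2, 5 between BrM3 and BoM and 6 between BoM and LM2, against 58.9%, 54.5% and 56.1% of all tested genes. The median size of the log2 difference was 0.945 over the 8 genes against 0.327 over all genes for BrM3 and LM2, 0.493 against 0.274 for BrM3 and BoM, and 1.43 against 0.364 for BoM and LM2.

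**Figure D1:**
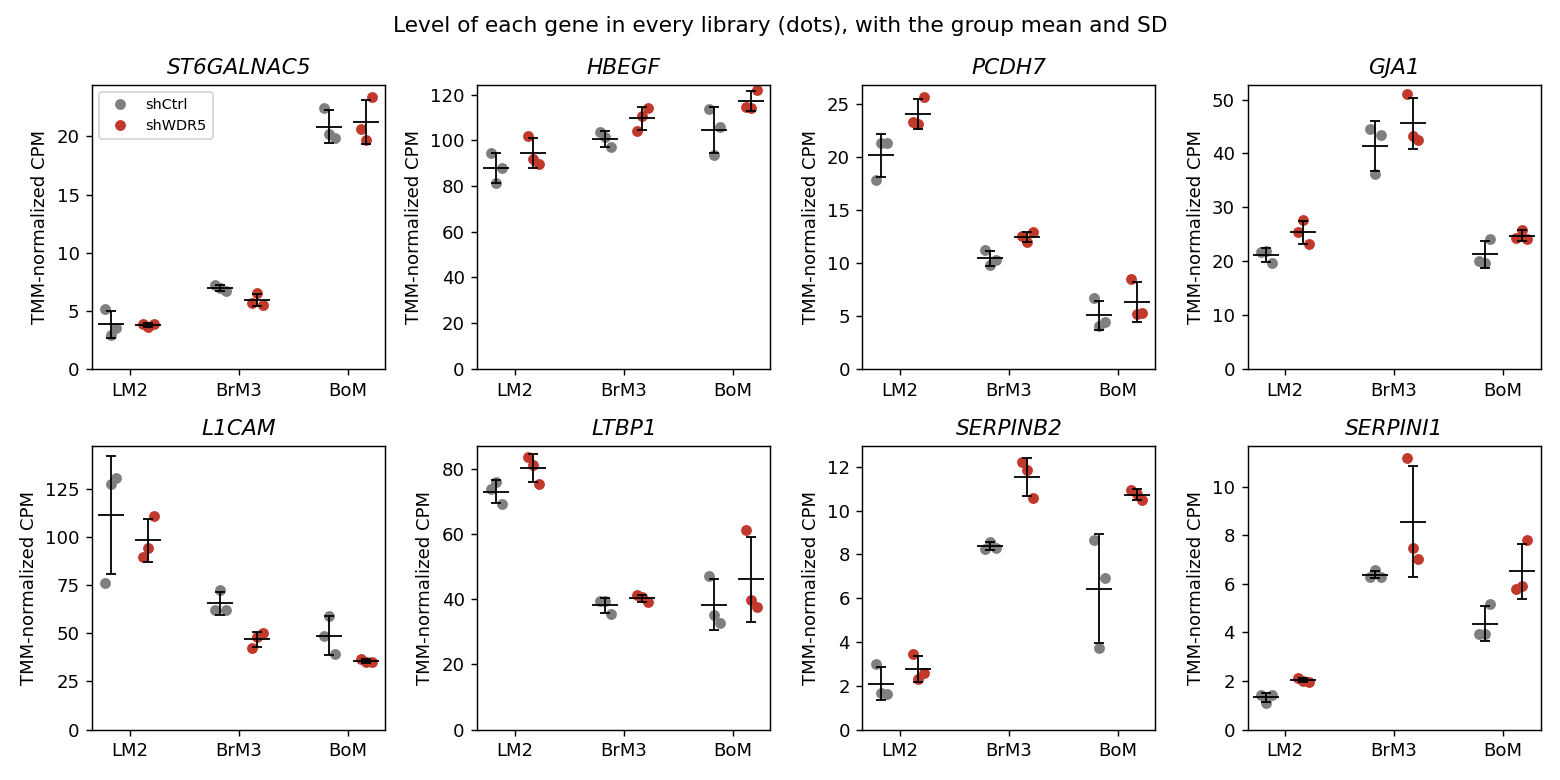
TMM-normalized CPM (vertical axis, starting at 0) of the 8 genes in each library of LM2, BrM3 and BoM, grey for shCtrl and red for shWDR5, with the mean and SD of each group in black. GJA1 and SERPINI1 have their highest shCtrl levels in BrM3, ST6GALNAC5 in BoM, and PCDH7, L1CAM and LTBP1 in LM2.

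**Figure D2:**
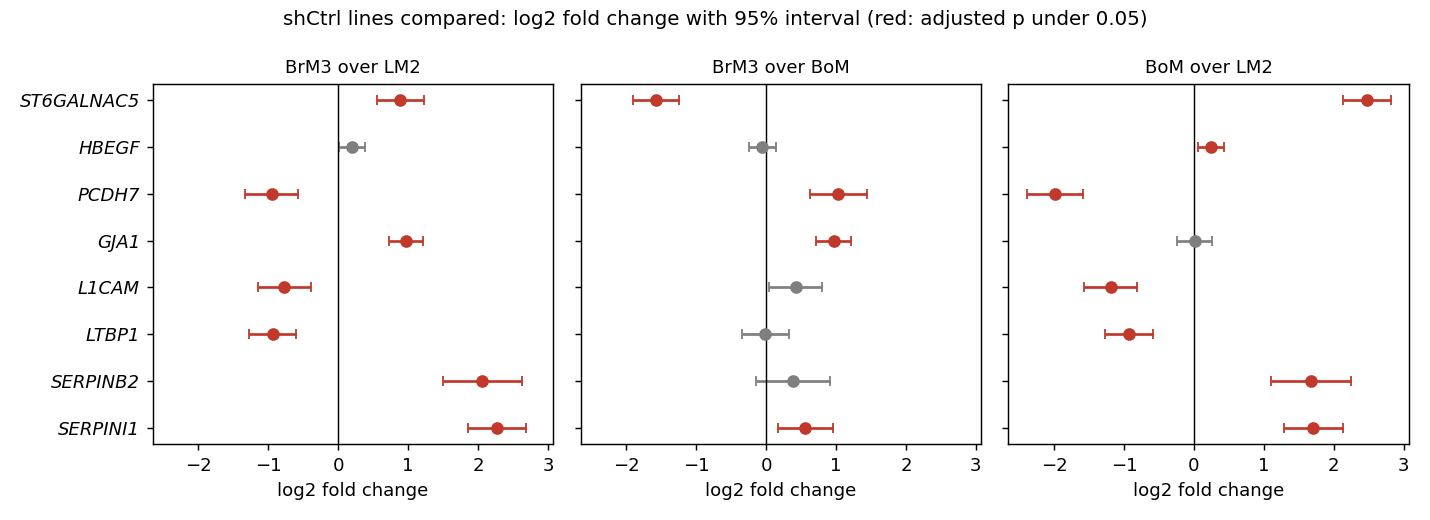
Log2 fold change between shCtrl lines (horizontal axis) for each gene with its 95% interval, red where edgeR's adjusted p is under 0.05. For BrM3 over LM2 the values run from -0.95 for PCDH7 to 2.27 for SERPINI1, on both sides of 0.

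Per kilobase of exon, the scale on which genes can be compared with each other, the genes covered a wide range within the brain line. In BrM3 shCtrl, HBEGF was most abundant at 33.6 ± 1.12 CPM per kb, followed by GJA1 at 12.2 ± 1.35 and L1CAM at 9.01 ± 0.813. LTBP1 stood at 5.19 ± 0.299 CPM per kb. SERPINB2 and SERPINI1 had nearly equal levels of 3.05 ± 0.0673 and 3.00 ± 0.0715 CPM per kb, a gap smaller than either SD. ST6GALNAC5 at 1.15 ± 0.0479 and PCDH7 at 0.808 ± 0.0544 CPM per kb were lowest. The order changed with the line: in BoM, ST6GALNAC5 reached 3.44 ± 0.234 CPM per kb, above SERPINB2 at 2.35 ± 0.912, and PCDH7 was at 0.391 ± 0.108.

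The second question was how the 8 genes responded to WDR5 knockdown. The median log2 fold change of the 8 genes was 0.192 (LM2), 0.13 (BrM3) and 0.245 (BoM), against medians of -0.000668, -0.00551 and 0.0152 over all tested genes. In BoM, SERPINB2 and SERPINI1 rose, the only 2 of the 8 genes called there, against 16.1% of all tested genes (5.4% higher and 10.7% lower). None of the 8 was called in LM2, where 6.25% of tested genes were (1.48% higher and 4.77% lower). None was called in BrM3, where 10.8% were (2.87% higher and 7.89% lower). At an unadjusted p under 0.05 in edgeR LM2 had 2 of the 8 genes, BrM3 had 2 and BoM had 3, against 20.1%, 24.9% and 30.2% of all tested genes. At the adjusted threshold DESeq2 called 1 gene for LM2, 0 for BrM3 and 2 for BoM. Over all genes it called 1142, 1770 and 2465, against 756, 1301 and 1947 by edgeR. In BoM, the deviations of same-number replicates from their group means had correlations of 0.565, 0.322 and 0.145. The last is weak, below the 0.211 of replicate 2 of shCtrl with replicate 3 of shWDR5. With the replicate number as a block, in a fit that blocked all 3 lines, 5 of the 8 genes were called in BoM, against 26.3% of all tested genes. L1CAM, LTBP1 and PCDH7 were added to the serpins.

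The protease inhibitors gave the largest positive log2 fold changes in each line. In BrM3 the fall of L1CAM (-0.48) was larger in size than either. SERPINI1 in shWDR5 stood at 2.14, 2.00 and 1.97 CPM in LM2, at 11.2, 7.48 and 7.02 CPM in BrM3 and at 5.80, 5.93 and 7.81 CPM in BoM. In each line every shWDR5 library was above every shCtrl library. Among all tested genes, 25.3% had no overlap of groups in LM2, 35.5% in BrM3 and 30.2% in BoM. LM2 had a log2 fold change of 0.63 (SE 0.20, edgeR adjusted p = 0.0761), BrM3 of 0.41 (SE 0.176, edgeR adjusted p = 0.156) and BoM of 0.59 (SE 0.182, edgeR adjusted p = 0.0353). The BoM call ended without replicate 1 (0.53, adjusted p = 0.111) or 2 (0.53, adjusted p = 0.133) of shCtrl or replicate 3 of shWDR5 (0.44, adjusted p = 0.142), without TMM scaling (adjusted p = 0.0795) and with only the BoM groups fitted (0.0816). In LM2 the gene passed without replicate 1 of BrM3 shWDR5 (adjusted p = 0.0286), a library outside that comparison whose SERPINI1 level was far from its group's other replicates.

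SERPINB2 in shWDR5 stood at 3.45, 2.32 and 2.59 CPM in LM2, at 12.2, 11.9 and 10.6 CPM in BrM3 and at 10.9, 10.8 and 10.5 CPM in BoM. The shWDR5 libraries of BrM3 and BoM were all above the shCtrl libraries of their line, and those of LM2 overlapped with shCtrl. BoM had a log2 fold change of 0.74 (SE 0.245, edgeR adjusted p = 0.0483), BrM3 of 0.46 (edgeR adjusted p = 0.251) and LM2 of 0.47 (edgeR adjusted p = 0.355). The BoM value rested most on replicate 2 of shCtrl, the lowest library of its group, without which it was 0.45 (adjusted p = 0.205). Being close to the threshold, the call was lost in 14 of the 18 fits that each left out 1 library, with adjusted p up to 0.205, among them every fit without a BrM3 library. It also ended without TMM scaling (adjusted p = 0.0857) and with only the BoM groups fitted (0.102). It held without replicate 1 of BoM shCtrl and without replicate 1 or 3 of LM2 shCtrl or replicate 1 of LM2 shWDR5.

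L1CAM, the adhesion molecule that plasmin can cleave, was the gene with the largest value in the other direction. In shWDR5 it stood at 42.4, 47.9 and 50 CPM in BrM3, at 36.7, 34.9 and 34.8 CPM in BoM and at 89.6, 94.1 and 110.6 CPM in LM2. All shWDR5 libraries of BrM3 and BoM were below the shCtrl libraries of their line, and those of LM2 lay within the shCtrl range. The log2 fold change was -0.48 in BrM3 (SE 0.172, 95% interval -0.86 to -0.11, edgeR adjusted p = 0.0828), -0.46 in BoM (SE 0.173, edgeR adjusted p = 0.0815) and -0.19 in LM2 (edgeR adjusted p = 0.617). Without replicate 1 of LM2 shCtrl, the library that widened the spread of this gene, adjusted p was 0.019 in both BrM3 and BoM, and without replicate 3 of BoM shCtrl it was 0.0372 in BoM. With the replicate block L1CAM was called in BoM (-0.44, edgeR adjusted p = 0.0197).

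GJA1 in shWDR5 stood at 51.1, 43.2 and 42.5 CPM in BrM3, at 25.3, 27.6 and 23.3 CPM in LM2 and at 24.3, 25.9 and 24.1 CPM in BoM. Only in LM2 were the groups apart. BrM3, where GJA1 is most abundant, had the smallest log2 fold change, 0.14 (edgeR adjusted p = 0.49), against 0.27 in LM2 (edgeR adjusted p = 0.173) and 0.22 in BoM (edgeR adjusted p = 0.195). PCDH7, its partner in those junctions, had 0.25, 0.26 and 0.32 (edgeR adjusted p = 0.466, 0.408 and 0.265), with shWDR5 libraries of 23.1 to 25.7 CPM in LM2, 11.96 to 12.9 CPM in BrM3 and 5.15 to 8.48 CPM in BoM, and no overlap in LM2 and BrM3. With the replicate block PCDH7 was called in BoM (0.32, edgeR adjusted p = 0.0461).

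HBEGF, LTBP1 and ST6GALNAC5 were not called in any line in the fit without the block, and their intervals give the range of response left. HBEGF had a log2 fold change of 0.17 in BoM, 0.12 in BrM3 and 0.10 in LM2, and the highest upper bound of its 95% intervals was 0.35. Its shWDR5 libraries lay above all shCtrl libraries in BrM3 and BoM, where 35.5% and 30.2% of all tested genes had no overlap of groups. LTBP1 had 0.13 in LM2, 0.08 in BrM3 and 0.27 in BoM, where the 95% interval ran from -0.07 to 0.60. Its groups overlapped in every line, although it was called in BoM with the replicate block (0.25, edgeR adjusted p = 0.0292). ST6GALNAC5 had -0.01 in LM2 (95% interval -0.36 to 0.34), -0.24 in BrM3 (-0.58 to 0.10) and 0.03 in BoM (-0.29 to 0.35). Its shWDR5 libraries in BoM ranged from 19.7 to 23.4 CPM, so the line that held the most of it kept a similar range after knockdown.

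**Figure D3:**
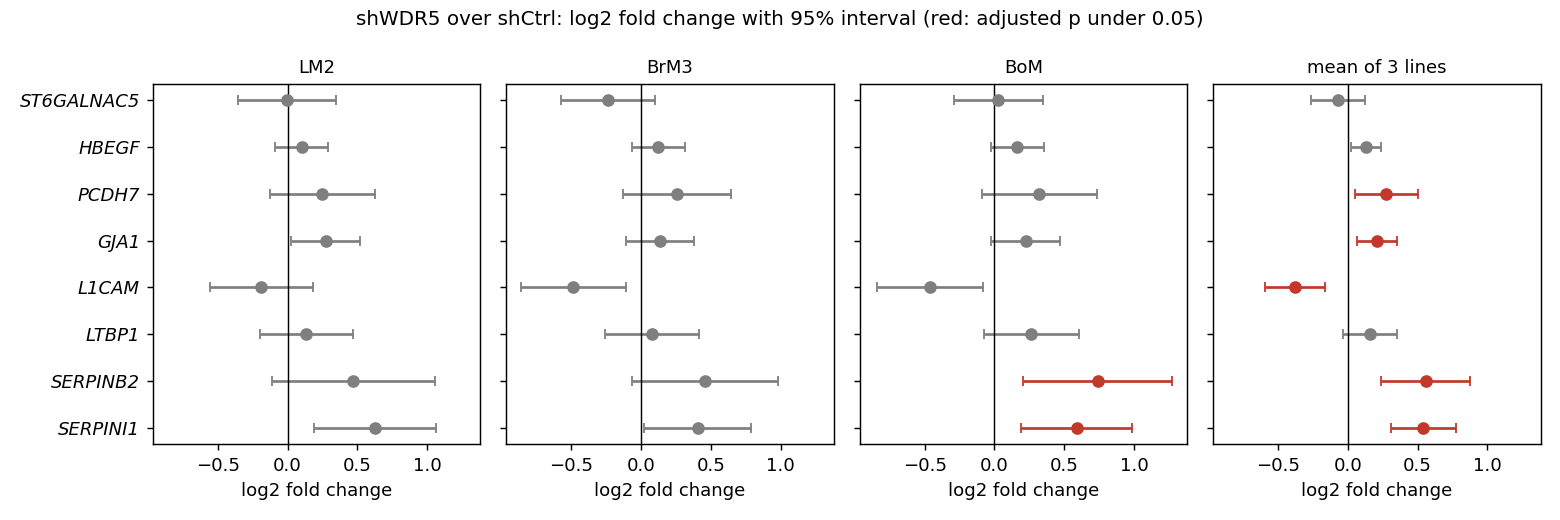
Log2 fold change of shWDR5 over shCtrl (horizontal axis) with its 95% interval in LM2, BrM3 and BoM and as the mean over the 3 lines, red where edgeR's adjusted p is under 0.05. SERPINB2 and SERPINI1 are above 0 and L1CAM below 0 in every panel, and in single lines only the serpins in BoM are red.

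None of the 8 genes responded differently between lines at an adjusted p under 0.05 by edgeR in any of the 3 pairs of lines, and DESeq2 called 0. Of all tested genes 0.00827% were called for BrM3 minus LM2, 0.00827% for BrM3 minus BoM and 0 for BoM minus LM2. At an unadjusted p under 0.05 the count was 0 of the 8 genes in each pair, against 2.94%, 2.9% and 5.17% of all tested genes. The intervals are wide: the response of L1CAM in BrM3 minus that in LM2 was -0.30 (95% interval -0.82 to 0.23), and that of SERPINB2 in BoM minus LM2 was 0.27 (-0.52 to 1.06).

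Averaged over the 3 lines in the same fit, a comparison added after the values above were seen, SERPINI1, SERPINB2, GJA1 and PCDH7 rose and L1CAM fell. These are 5 of the 8 genes, against 35.4% of all tested genes, of which 15.6% were higher and 19.9% lower. The mean log2 fold change was 0.54 for SERPINI1 (SE 0.108, edgeR adjusted p = 0.000892), 0.56 for SERPINB2 (SE 0.145, edgeR adjusted p = 0.00648) and -0.38 for L1CAM (SE 0.0992, edgeR adjusted p = 0.00688), and these 3 were called in all 23 alternatives. GJA1 had 0.21 (SE 0.0648, edgeR adjusted p = 0.0176), a call lost without TMM scaling (0.12, adjusted p = 0.175). PCDH7 had 0.28 (SE 0.104, edgeR adjusted p = 0.047), lost without TMM scaling (adjusted p = 0.194) and in 15 of 18 fits that left out 1 library, the lowest value being 0.18 without replicate 1 of BoM shWDR5 (adjusted p = 0.116). Of those 18 fits it held in the 3 without replicate 1 of BoM shCtrl or replicate 2 or 3 of BoM shWDR5. HBEGF at 0.13 (edgeR adjusted p = 0.0517) passed without replicate 1 of LM2 shCtrl (adjusted p = 0.0295), replicate 3 of LM2 shWDR5 (0.044), replicate 1 of BrM3 shWDR5 (0.0359) or replicate 1 of BoM shCtrl (0.0154). LTBP1 at 0.16 (edgeR adjusted p = 0.175) passed without replicate 1 of BoM shCtrl (0.23, adjusted p = 0.0474), and ST6GALNAC5 had -0.07 (edgeR adjusted p = 0.552).

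The other genes of these pathways were taken from 8 lists, in which 47 of 99 listed genes were tested. After knockdown LM2 had 1 of the 47 higher and 3 lower, against 1.48% and 4.77% of all tested genes. BrM3 had 1 higher and 7 lower, against 2.87% and 7.89%, and BoM had 7 in each direction, against 5.4% and 10.7%. With the replicate block BoM had 24 of the 47 called, against 26.3% of all tested genes. In the plasminogen list, PLAU, the urokinase-type activator that SERPINB2 inhibits, fell in every line, as did 3.25% of all tested genes, while 0.753% rose in every line. PLAU went from 417.1 ± 17.01 to 283.6 ± 19.8 CPM in LM2, from 482.3 ± 21.2 to 285.4 ± 14.1 CPM in BrM3 and from 154.0 ± 4.29 to 86.6 ± 9.45 CPM in BoM, with no overlap of groups. Its log2 fold change was -0.56 in LM2 (edgeR adjusted p = 0.000813), -0.76 in BrM3 (5.23e-05) and -0.83 in BoM (7.74e-06). PLAUR, the urokinase receptor, rose by 0.47 in LM2 (edgeR adjusted p = 0.0341) and 0.54 in BoM (0.00816) and had 0.27 in BrM3 (0.198). The LM2 call of PLAUR was lost without replicate 1 (adjusted p = 0.0959) or 2 (0.107) of LM2 shCtrl or any LM2 shWDR5 library (0.0808, 0.0611 and 0.113), and PLAUR passed in BrM3 without replicate 1 of BrM3 shWDR5 (0.0336). ANXA2, a surface receptor for plasminogen, rose by 0.39 in BrM3 (edgeR adjusted p = 0.0171), a call lost without replicate 1 (0.0659) or 2 (0.0657) of BrM3 shCtrl or replicate 2 (0.0502) or 3 (0.0761) of BrM3 shWDR5. In LM2 (0.29) and BoM (0.28) ANXA2 passed without replicate 1 of BoM shWDR5 (0.0237 and 0.00397). Of the 8 tested genes of this list 1 was higher and 1 lower in LM2 and in BrM3, and 2 were higher and 1 lower in BoM, to be read against the shares of all tested genes given above.

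In BrM3 and BoM, the relatives of L1CAM, GJA1 and LTBP1 named for their knockdown calls had negative log2 fold changes further from 0 than those genes. That rule names only genes that were called. GJA3, ITGB8 and LTBP2, named only for line differences, did not all fall. GJA3 went from 5.16 to 5.70 CPM in BrM3 and from 4.66 to 4.50 in BoM. ITGB8 went from 2.17 to 2.23 CPM in BrM3 and from 1.84 to 2.66 in BoM. LTBP2 went from 8.925 to 5.94 CPM in BrM3 and from 8.67 to 6.16 in BoM. NRCAM, the only other L1 family member tested, fell by 0.94 in BrM3 (edgeR adjusted p = 0.00033) and by 0.75 in BoM (0.00168) and had -0.31 in LM2 (0.21). GJB2, connexin 26, fell by 1.22 in BrM3 (edgeR adjusted p = 0.000676) and by 0.99 in BoM (0.00657). In LM2 GJB2 went from 16.4 to 13.7 CPM and was not called. It was the only call among 3 tested connexins and pannexins, whose median log2 fold change was 0.126 in BrM3 and -0.0496 in BoM. LTBP3, which like LTBP1 holds latent TGF-beta, fell by 1.30 in BrM3 (edgeR adjusted p = 0.00369) and by 1.71 in BoM (0.00103), the only call among 9 tested genes of that list in either line. In LM2 LTBP3 passed without replicate 1 of LM2 shCtrl (-0.83, adjusted p = 0.00888). PCDH9, the only other delta protocadherin tested, rose by 1.02 in BoM (edgeR adjusted p = 0.00125), and without replicate 1 of BoM shWDR5 it also passed in LM2 (0.53, adjusted p = 0.0441) and BrM3 (0.49, 0.0446).

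Among the 9 tested sialyltransferases, ST6GAL1, which adds sialic acid to N-glycans, fell in every line, by 0.57 (LM2), 0.61 (BrM3) and 0.52 (BoM) on the log2 scale (edgeR adjusted p = 0.0024, 0.000921 and 0.00246). ST8SIA4, a polysialyltransferase, rose by 0.63 in BoM (edgeR adjusted p = 0.0287), lost without replicate 2 (0.156) or 3 (0.0745) of BoM shCtrl or replicate 1 of BoM shWDR5 (0.113). ST3GAL6 rose by 0.42 in BoM (edgeR adjusted p = 0.0459), a call kept in 6 of 18 fits that left out 1 library, with the highest adjusted p, 0.172, without replicate 3 of BoM shWDR5. Among the 10 tested genes of the EGF family list, to which HBEGF belongs, the receptor ERBB3 fell by 0.66 in LM2 (edgeR adjusted p = 0.0032) and 0.75 in BoM (0.000523). The ligand EGF fell by 0.82 in BrM3 (edgeR adjusted p = 0.015), lost without replicate 1 (0.0588) or 3 (0.0634) of BrM3 shCtrl or replicate 2 (0.0685) or 3 (0.0941) of BrM3 shWDR5. The ligand EREG rose by 0.55 in BoM (edgeR adjusted p = 0.0126), lost without replicate 2 of BoM shCtrl (0.0766). CTSS, a protease named with brain metastasis, fell by 0.86 in BrM3 (edgeR adjusted p = 0.0152) and 0.91 in BoM (0.0211). The calls of CTSS were lost without replicate 1 of shCtrl or replicate 2 or 3 of shWDR5 of the same line, with adjusted p up to 0.0749 in BrM3 and 0.118 in BoM.

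**Figure D4:**
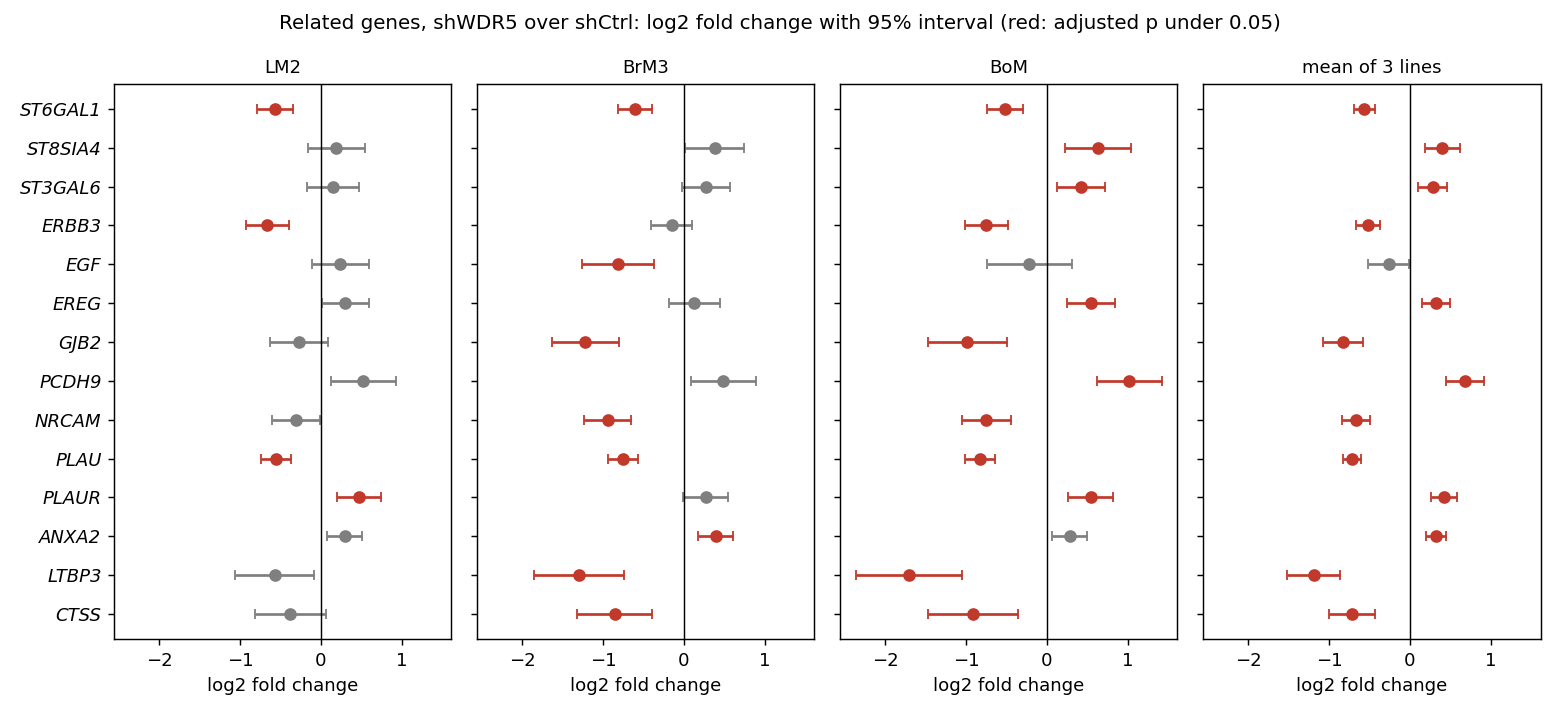
Log2 fold change of shWDR5 over shCtrl (horizontal axis) with its 95% interval for the related genes named for their knockdown calls. Panels are LM2, BrM3, BoM and the mean over the 3 lines, red where edgeR's adjusted p is under 0.05. PLAU and ST6GAL1 are red and below 0 in every panel, and LTBP3 reaches -1.71 in BoM.

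Between shCtrl lines, 14 of the 47 related genes were higher and 18 lower in BrM3 than in LM2, against 24.2% and 23.4% of all tested genes. Compared with BoM, 17 were higher and 5 lower in BrM3, against 19.8% and 17.9%. The plasminogen activators that the serpins inhibit also differed between lines: PLAT, the tissue plasminogen activator, had 1.37 over LM2 (edgeR adjusted p = 2.88e-07) and 1.37 over BoM (6.29e-07), and PLAU had 1.65 over BoM (3.19e-10) and 0.21 over LM2 (0.0524). PLAUR had 1.40 over LM2 (edgeR adjusted p = 1.06e-07) and 1.65 over BoM (3.73e-08). Between BrM3 and LM2, the EGF receptor ligands named by rule were lower in BrM3: EREG by -3.27, TGFA by -1.86 and AREG by -1.67 (edgeR adjusted p = 1.01e-11, 3.52e-10 and 8.57e-07). The rule picks the genes with the largest called differences, so their exceeding HBEGF, which was not called there, follows from that choice. The ligand EGF had a mean of 1.45 CPM in BrM3 shCtrl, below 3.89 in LM2 and above 0.657 in BoM. GJB2, unlike GJA1, had -1.74 against LM2 (edgeR adjusted p = 2.65e-07) and 1.39 against BoM (2.29e-05), and NRCAM, unlike L1CAM, had 0.93 against LM2 (1.64e-05).

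Across the 18 libraries SERPINB2 and SERPINI1 followed each other most closely among the 8 genes, with a Pearson r of log2 CPM of 0.949. ST6GALNAC5 and PCDH7 ran in opposite directions (-0.939), as did L1CAM and SERPINB2 (-0.89). These values describe 18 libraries of 3 lines, and most of the spread they rest on lies between the lines. The tested genes nearest in pattern were TAP2 for SERPINB2 at r = 0.978, PELI1 for SERPINI1 at 0.976, ABCA2 for L1CAM at 0.994, ARRDC4 for GJA1 at 0.975, GPR89A for ST6GALNAC5 at 0.982, KIAA1217 for PCDH7 at 0.983, ARHGAP32 for LTBP1 at 0.982 and YRDC for HBEGF at 0.932.

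**Figure D5:**
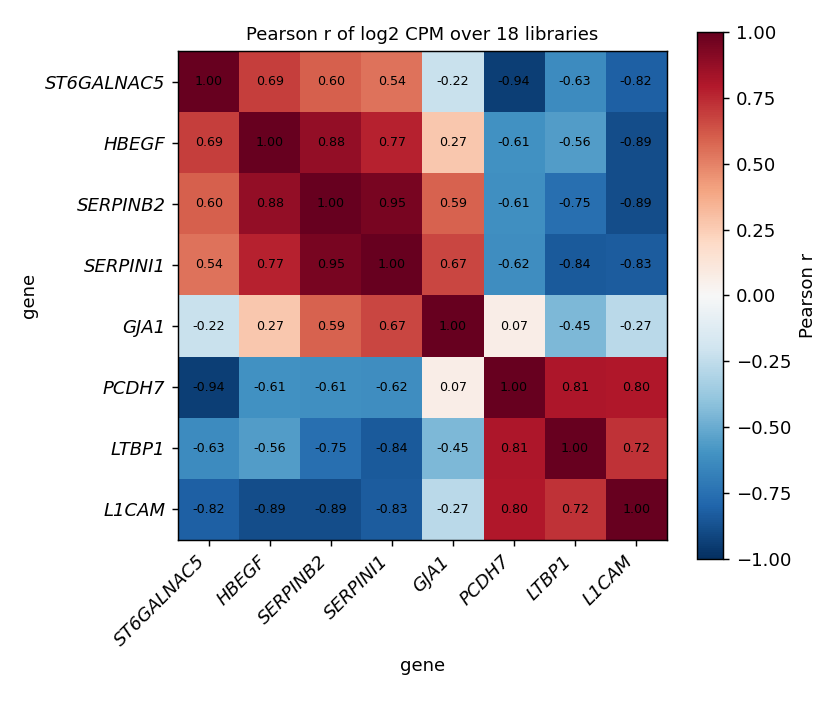
Pearson r of log2 CPM for each pair of the 8 genes over the 18 libraries, from blue at -1 through white at 0 to red at 1. The serpin pair has 0.949 and the ST6GALNAC5 and PCDH7 pair -0.939.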

How the data were processed

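The authors aligned paired-end reads of stranded mRNA libraries to hg38 with STAR 2.7.0, and the deposited table holds raw counts of reads per gene against the annotation they name GENCODEv96. The strand setting of the counts is not given in the sources used here. L1CAM shares 359 bp of exon with the antisense L1CAM-AS1, which had at most 15 counts in a library. It also shares 439 bp with a same-strand gene that had 0 counts. SERPINB2 shares 547 bp with a same-strand protein-coding gene that is absent from the counts table. PCDH7 shares 1602 bp with an antisense noncoding gene, also absent, and LTBP1 249 bp with one that had at most 1 count. The table has 0 rows of spike-in RNA, so spike-in scaling was not used here. The authors also deposited DESeq2 fold changes and adjusted p-values, which were not used. There were 0 unused per-sample columns.

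Groups came from the sample titles. Counts were scaled by TMM and fitted over 6 groups by quasi-likelihood (edgeR 4.0.16, R 4.3.3, 12 residual degrees of freedom), with Benjamini-Hochberg adjustment and a threshold of 0.05. Genes were kept when their highest normalized count exceeded 145, where the Jaccard index between replicates peaked (0.970). This kept 12087 genes. Depth gave these 8 genes 35 to 16037 counts per library. CPM per kb used exon lengths of GENCODE 44 on GRCh38, which also gave the coordinates, and log2 CPM for correlations had a prior count of 2. Replicates differed by more than sampling noise in every group (chi-square per gene). p-values measure the spread between cultures of different passages. The replicate numbers in the titles were taken as pairs in BoM, where the deviations of shCtrl and shWDR5 libraries with the same number had correlations of 0.565, 0.322 and 0.145, and not in LM2 or BrM3.

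The 8 genes and the lists were chosen with earlier results of these data known. Related genes were named by rule: up to 3 per list called in most knockdown comparisons, and up to 3 with the largest called difference of BrM3 from LM2 or BoM, plus the 2 genes nearest in pattern to each of the 8, of which 1 is printed. Of 99 listed genes 98 were found by symbol, and FBN1 was not. Alternatives were DESeq2 1.42.0, filterByExpr, no filter, no TMM scaling, a replicate block, only the groups compared and leaving out each library. On simulated counts of 12087 genes, with 200 changed, the fit recovered 98% (LM2), 99% (BrM3) and 97% (BoM) of simulated log2 changes of 1 or more and 74%, 71% and 64% of changes of 0.7, with 3, 9 and 12 false calls. The changes of 1 or more all had the same size, which was above 1. Changes smaller than 0.7 were not simulated, and nearly all knockdown values of the 8 genes were that small.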

Additional observations from a re-analysis of the deposited data

How the results depend on the processing

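No alternative turned the direction of a called value. Of the 8 genes, the number called after knockdown in BoM was 2, and it was 5 with the replicate block, 1 without TMM scaling, 0 with only the groups compared and 0 to 3 when 1 library was left out. In BrM3 it was 0, and 1 with no filter, with the block or without TMM scaling, 2 with only the groups compared and 0 to 1 with 1 library left out. In LM2 it was 0, and 1 with DESeq2 or the block and 0 to 1 with 1 library left out. Averaged over the lines it was 5, and 3 without TMM scaling, 6 with DESeq2 or filterByExpr, 7 with the block and 4 to 7 with 1 library left out. Over all genes that averaged comparison called 4284, and 4767 with DESeq2 and 5669 with the block, so the calls rose over all genes too. Between shCtrl lines the counts were 7 to 8 (BrM3 and LM2), 3 to 5 (BrM3 and BoM) and 6 to 7 (BoM and LM2) over the fits without 1 library. In BoM, SERPINI1 and SERPINB2 lost their calls without TMM scaling (edgeR adjusted p = 0.0795 and 0.0857) and with only the groups compared (0.0816 and 0.102), and kept them with DESeq2 (0.0157 and 0.0185). L1CAM passed without TMM scaling (edgeR adjusted p = 0.0314 in BrM3 and 0.0326 in BoM) and with no filter (0.0252 and 0.0129). The cause was not tested. Without TMM scaling the median of all genes moved from -0.00551 to -0.102 in BrM3.

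Libraries of a line with the same replicate number had correlated deviations above 0.1 in 7 of 9 pairs (mean 0.361), against 5 of 18 pairs with different numbers (mean -0.195). Deviations were taken from each group's own mean, so positive values for same-number pairs push the others down, and the contrast is not independent evidence of pairing. In BoM, replicate 2 of shCtrl and replicate 3 of shWDR5 had 0.211, above the 0.145 of the replicate 3 pair. All 3 pairs of BoM were above 0.1, replicate 2 of LM2 (0.0249) and replicate 3 of BrM3 (-0.177) were not, and so the numbers were taken as pairs in BoM alone. The block fit nevertheless paired the numbers in all 3 lines at once, so its BoM values also rest on pairs in LM2 and BrM3. With the replicate block, L1CAM was called in BrM3 (adjusted p = 0.0154) and BoM (0.0197), SERPINI1 in LM2 (0.0341), and LTBP1 (0.0292) and PCDH7 (0.0461) in BoM. Over all genes the block called 1432 in LM2 against 756 without it, 2281 against 1301 in BrM3 and 3173 against 1947 in BoM. DESeq2 called 1142, 1770 and 2465.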
